A study of Saccharomyces cerevisiae with 22 samples.

Results

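Ribosome biogenesis genes encode the factors that process and fold the precursor of ribosomal RNA and assemble it with ribosomal proteins. The genes described here are 58 named members of this class, taken by gene symbol, out of 6373 features on the array. They were chosen with earlier results of these data known. Each had 1 probe spotted 2 times, each was detected on all 22 arrays and passed the filter on dim features, and together they lie on 15 chromosomes. Another 125 genes, which encode the cytosolic ribosomal proteins themselves, are used for comparison.

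In budding yeast, ribosome assembly starts in the nucleolus, where RNA polymerase I makes a long precursor RNA. Complexes that contain the U3 small nucleolar RNA cut and fold its first part into the small subunit, while a separate set of factors builds the large subunit. The genes for these factors are known to be transcribed together in growing cells and to be turned down together under stress and when TOR signalling is inhibited, which is how rapamycin acts in ordinary strains.

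The study followed newly made RNA in Saccharomyces cerevisiae while the transcription factor Hsf1 was taken out of the nucleus. In the anchor-away method rapamycin ties an FRB-tagged protein to an FKBP12-tagged ribosomal protein, which carries it to the cytoplasm. Hsf1-aa cells carry Hsf1-FRB-yEGFP together with the tor1-1 allele, a deletion of FPR1 and RPL13A fused to FKBP12. WT-aa cells carry the same tor1-1 allele, FPR1 deletion and RPL13A-FKBP12 fusion without the tag on Hsf1, and both are of mating type alpha in a BY4742 background. tor1-1 and the loss of FPR1 are known to make cells resistant to rapamycin.

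Cells of both strains were sampled before rapamycin (0 min) and after 15, 30, 60 and 90 min of 0.15 µM rapamycin, the slow depletion, with 2 arrays per strain and time. Per the series description these came from independent cultures. Both strains were also sampled after 30 min of 7.5 µM rapamycin, the standard depletion, with 1 array each. 4-thiouracil (4tU) was present at 5 mM for the last 6 min, so that RNA made in that interval could be pulled out. On slow arrays the other channel held 4tU RNA pooled from 2 untreated cultures of WT-aa, with the sample in Cy3 on arrays of letter a and in Cy5 on arrays of letter b. Values are log2 ratios of sample to that pool unless stated. Each array was centred on its yeast spots, so a value is relative to the other genes of its array, and RNA from fewer cells cannot be told apart from less RNA per cell. Of the mating type genes, the alpha genes STE3 and SAG1 and the 7 a genes measured were all above background on 22 of 22 arrays, so detection did not separate the mating types.

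A list of 17 chaperone genes that Hsf1 drives was also chosen with earlier results of these data known. All 17 were lower at 90 min than at 0 min in Hsf1-aa, where 51.5% of all features were lower. Their median log2 change was -2.31. Across the 58 ribosome biogenesis genes, which are not independent of each other, Pearson's r between both replicates ran from -0.263 to 0.416 over the 10 groups. Over all features r ran from -0.208 to 0.736. The replicates carried opposite dyes, and r was taken without removing the dye term. Across the 58 genes the median absolute difference between replicates ran from 0.102 to 0.226 on the log2 scale. Signal over background lay between 19.6 and 38.8 for slow depletion and between 17.7 and 17.8 for standard depletion, and the number of arrays limits the precision.

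The ribosome biogenesis genes had low values at 15 min of rapamycin in both strains, whether or not Hsf1 was tagged. In Hsf1-aa the array medians of the 58 genes were -0.05 and -0.09 at 0 min, -0.25 and -0.38 at 15 min, 0.00 and -0.17 at 30 min, 0.10 and 0.01 at 60 min, and -0.02 and -0.06 at 90 min (letters a and b). In WT-aa they were 0.02 and -0.01 at 0 min, -0.17 and -0.29 at 15 min, -0.28 and -0.13 at 30 min, -0.08 and -0.01 at 60 min, and 0.01 and -0.06 at 90 min. In each strain both arrays at 15 min lay below both arrays at 0 min, and at 90 min the values were close to those at 0 min. At 30 min the 2 Hsf1-aa arrays spanned the level at 0 min, while both WT-aa arrays lay below it. The medians of the ribosomal protein genes stayed between -0.12 and 0.10 on the 20 slow arrays.

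**Figure D1:**
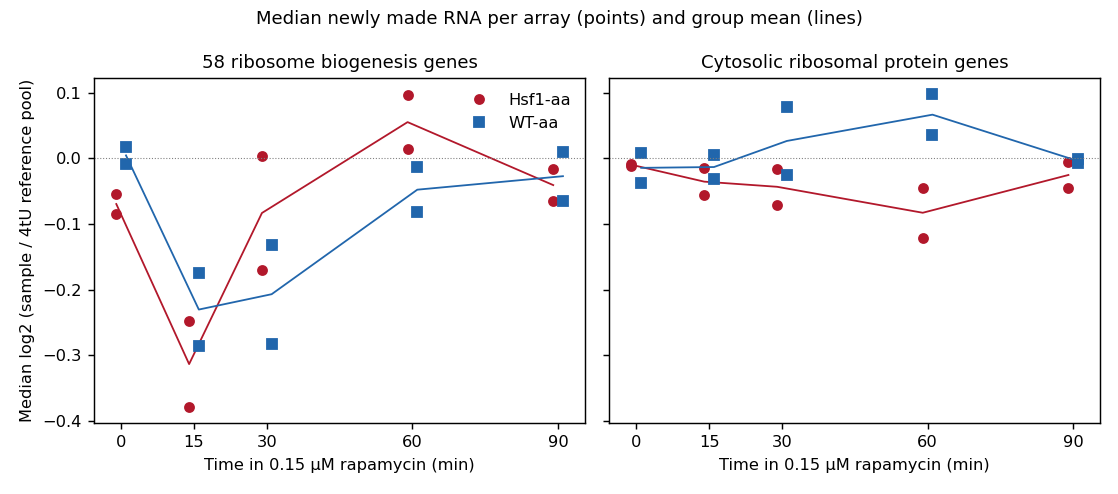
Median log2 ratio of sample to 4tU reference pool on each slow array (points; 2 per strain and time) against time in rapamycin, for the 58 ribosome biogenesis genes and for the 125 ribosomal protein genes, with lines through the group means. At 15 min the ribosome biogenesis medians lie at -0.25 and -0.38 in Hsf1-aa and at -0.17 and -0.29 in WT-aa, while the ribosomal protein medians stay between -0.12 and 0.10.

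In Hsf1-aa at 15 min against 0 min, 56 of the 58 genes had a log2 change below 0 and the median change was -0.23, against -0.00 over the 6353 features tested, 51.2% of which were below 0. After adjustment over all features, 4 genes fell: DBP2, HAS1, RRS1 and MAK5. The share of all features that fell was 0.535%. Before adjustment, 35 of the 58 genes had p under 0.05, all of them lower, where 14.0% of all features had such a p in either direction. Both arrays at 15 min lay below both arrays at 0 min for 43 of 58 genes, and for 14.2% of all features. These calls depended on the processing: the count was 0 without the replicate block (the dye term), 1 with median centring, 12 with the authors' log2 ratios and 17 with array quality weights. The shares of all features called under these settings are not given here. The calls also depended on single arrays. None of the 58 genes was called without the Hsf1-aa 0 min array a, without the Hsf1-aa 0 min array b or without the Hsf1-aa 15 min array b. The count was 2 without either WT-aa 90 min array, 7 without either Hsf1-aa 30 min array and 11 without either WT-aa 30 min array. With each of the 20 arrays left out in turn, the median change stayed between -0.30 and -0.20.

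In WT-aa at 15 min against 0 min, 55 of the 58 genes were below 0 and the median change was -0.24, against 0.01 over all features. No gene passed the limma test after adjustment, where 0.236% of all features did, and 34 genes had p under 0.05 before adjustment, all of them lower, against 17.4% of all features. With array quality weights the counts were 26 in WT-aa and 17 in Hsf1-aa. At 15 min these weights were 1.53 in WT-aa and 1.05 in Hsf1-aa, so these counts cannot be ranked. The number called in WT-aa was 3 with the authors' log2 ratios. It was 2 without either Hsf1-aa 30 min array. The shares of all features called under these settings are not given here. Both arrays at 15 min were below both arrays at 0 min for 39 of 58 genes, and for 24.4% of all features. The smallest adjusted p was 0.119, for MAK5.

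The 4 genes called lower at 15 min in Hsf1-aa are 3 RNA helicases and 1 large-subunit factor. DBP2 (YNL112W, chromosome XIV) encodes a DEAD-box RNA helicase with roles in messenger RNA handling as well as in ribosome assembly. Its values in Hsf1-aa were -0.10 and -0.32 at 0 min, -0.57 and -1.21 at 15 min, -0.12 and -0.53 at 30 min, 0.14 and -0.41 at 60 min, and 0.02 and -0.33 at 90 min. In WT-aa they were 0.08 and -0.02, -0.28 and -0.69, -0.44 and -0.37, -0.14 and -0.37, and 0.18 and -0.17 at the same times. The arrays at 15 min did not overlap those at 0 min in either strain, and array b was the lower one in every group but WT-aa at 30 min. At 15 min against 0 min DBP2 fell 1.60-fold in Hsf1-aa (log2 change -0.68, SE 0.13, limma adjusted p = 0.0316). In WT-aa its log2 change was -0.51 (SE 0.13, adjusted p = 0.165).

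HAS1 (YMR290C, chromosome XIII) encodes a DEAD-box helicase used in the assembly of both subunits. In Hsf1-aa it read 0.08 on both arrays at 0 min and -0.39 on both at 15 min, and -0.15 and 0.00 at 30 min, -0.13 and 0.02 at 60 min, and -0.04 and -0.22 at 90 min. In WT-aa it read -0.06 and 0.21 at 0 min, -0.15 and -0.07 at 15 min, -0.05 and -0.01 at 30 min, -0.01 and 0.01 at 60 min, and -0.10 and -0.18 at 90 min. Both arrays at 15 min lay below both at 0 min in each strain, and in WT-aa the lowest mean was at 90 min. The change at 15 min was -0.48 in Hsf1-aa (SE 0.09, adjusted p = 0.0263) and -0.19 in WT-aa (SE 0.09, adjusted p = 0.285). The difference between these changes was -0.29 (SE 0.12, adjusted p = 0.762).

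RRS1 (YOR294W, chromosome XV) encodes a factor that brings the 5S ribosomal RNA into the large subunit. Its Hsf1-aa values were -0.05 and 0.04 at 0 min, -0.44 and -0.51 at 15 min, -0.24 and -0.18 at 30 min, -0.28 and -0.03 at 60 min, and -0.21 on both arrays at 90 min. Its WT-aa values were -0.12 and 0.05, -0.25 and -0.27, -0.23 and -0.09, -0.21 and -0.14, and -0.18 and -0.09. All 4 arrays at 15 min lay below the arrays of their strain at 0 min, and the lowest pair was that of Hsf1-aa. The change was -0.47 in Hsf1-aa (SE 0.07, adjusted p = 0.00846) and -0.22 in WT-aa (SE 0.07, adjusted p = 0.239).

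MAK5 (YBR142W, chromosome II) encodes a DEAD-box helicase of the large subunit pathway. It had -0.14 and -0.11 in Hsf1-aa at 0 min, -0.61 and -0.48 at 15 min, 0.00 and -0.29 at 30 min, 0.06 and -0.03 at 60 min, and -0.04 and -0.12 at 90 min. In WT-aa it had 0.06 and 0.03, -0.29 and -0.34, -0.29 and -0.21, -0.09 and -0.10, and -0.09 and -0.16. Both strains were lower on both arrays at 15 min than at 0 min, and in WT-aa this held at 30 min too. The change at 15 min was -0.42 in Hsf1-aa (SE 0.08, adjusted p = 0.0297) and -0.36 in WT-aa (SE 0.08, adjusted p = 0.119).

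**Figure D2:**
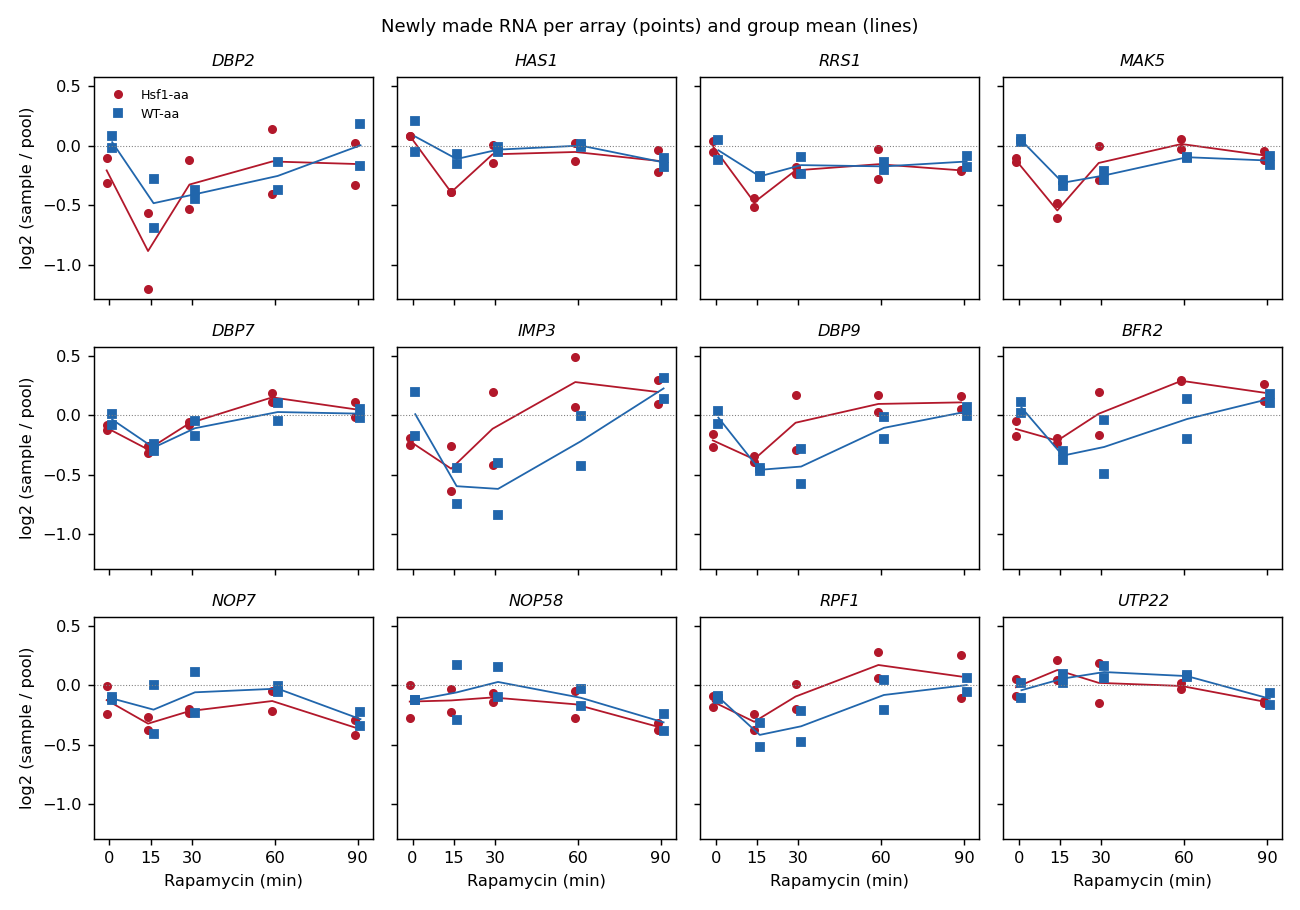
Log2 ratio of sample to 4tU reference pool on each slow array (points) with lines through the group means, against time in rapamycin, for the 5 genes called in a strain, the 6 of largest change at 90 min in Hsf1-aa, and UTP22. DBP2, HAS1, RRS1 and MAK5 are lowest at 15 min in Hsf1-aa, and IMP3 reaches -0.84 in WT-aa at 30 min and 0.49 in Hsf1-aa at 60 min.

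By role, the median log2 change at 15 min was below 0 in every group of factors in both strains. The proteins of the box C/D particles, which methylate ribosomal RNA, differed among themselves. In Hsf1-aa NOP56 was at -0.49 (SE 0.12, adjusted p = 0.0786) and NOP1, the methyltransferase, at -0.20, while NOP58 was at 0.01. In WT-aa they were at -0.14, -0.10 and 0.07, in the same order. The UTP-A subcomplex, which binds the precursor first, had all 6 genes below 0 in both strains, with medians of -0.21 in Hsf1-aa and -0.27 in WT-aa. UTP5 was the lowest of them, with -0.48 for Hsf1-aa and -0.41 for WT-aa. The UTP-B subcomplex, which joins next, also had all 5 genes below 0 in both strains, with medians of -0.29 and -0.14, and UTP6 was closest to 0, with -0.00 for Hsf1-aa and -0.02 for WT-aa. The Mpp10 complex, which helps U3 RNA to pair with the precursor, had all 3 genes below 0 in both strains, with medians of -0.19 and -0.22.

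The other small-subunit factors included the highest value of the class. ENP1, UTP20 and RRP5 had log2 changes of -0.49, -0.49 and -0.45 in Hsf1-aa and of -0.49, -0.43 and -0.49 in WT-aa. UTP22 was the highest of the 58 genes in both strains, with 0.14 for Hsf1-aa and 0.10 for WT-aa (SE 0.10 each, adjusted p = 0.528 and 0.562). In Hsf1-aa 11 of these 12 genes were below 0 and in WT-aa 10 were. The 9 RNA helicases, which unwind RNA during assembly, were all below 0 in both strains, with medians of -0.34 in Hsf1-aa and -0.30 in WT-aa. The 20 large-subunit factors were likewise all below 0, with medians of -0.21 and -0.26. Within them ERB1, YTM1 and NOG1 were at -0.36, -0.38 and -0.41 in Hsf1-aa and at -0.35, -0.45 and -0.39 in WT-aa, and NOP15 was at -0.01 and -0.03. ERB1 and YTM1 are partners in a complex with NOP7, which was itself at -0.20 and -0.09.

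**Figure D3:**
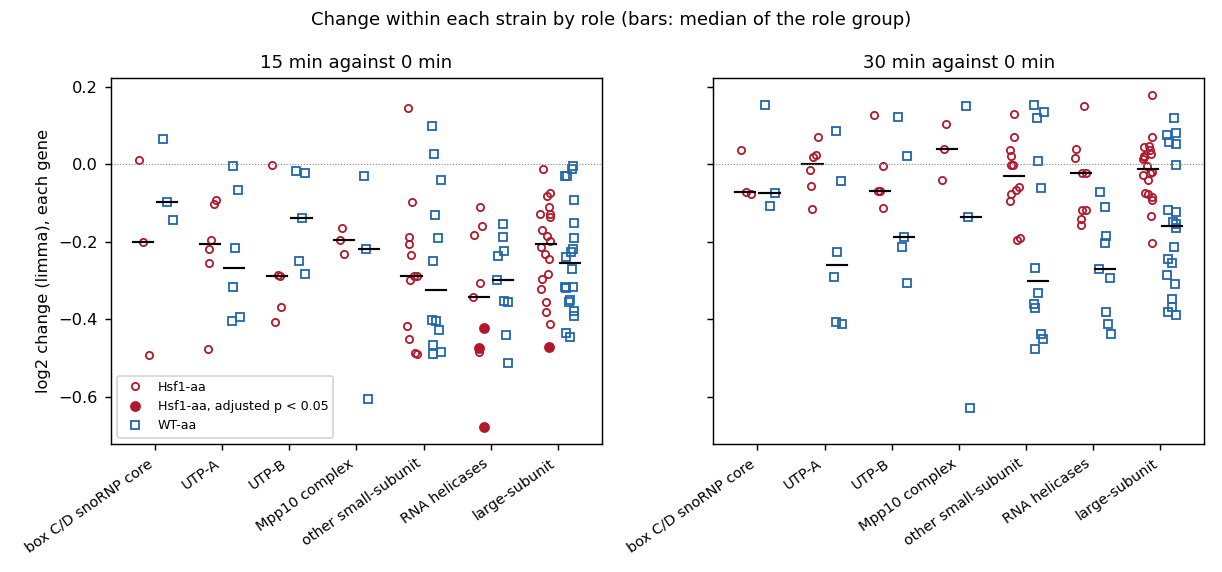
Log2 change of each of the 58 genes at 15 min (left) and 30 min (right) against 0 min, by role group, in Hsf1-aa (red circles, filled where the adjusted p is under 0.05) and WT-aa (blue squares), with black bars at the median of each role group. At 15 min most genes of both strains lie below 0, and at 30 min the medians lie near 0 in Hsf1-aa and below 0 in WT-aa.

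At 30 min the array medians of the strains overlapped, and no gene of either strain passed the test against 0 min. In Hsf1-aa the median change against 0 min was -0.02, with 35 of 58 genes below 0. None of the 58 was called, where 0.693% of all features were, and 2 had p under 0.05 before adjustment, against 4.34% of all features. Both arrays were below both at 0 min for 9 of 58 genes, and for 9.18% of all features. RRS1 was lowest, at -0.20 (SE 0.07, adjusted p = 0.71), and NOG2, a GTPase of the large subunit pathway, was highest, at 0.18 (SE 0.12, adjusted p = 0.997).

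In WT-aa at 30 min the median change was -0.20, with 44 of 58 genes below 0. None was called, where 0.189% of all features were, and 22 had p under 0.05 before adjustment, all lower, against 22.2% of all features. Both arrays were below both at 0 min for 32 of 58 genes, and for 19.3% of all features. The 2 WT-aa arrays at 30 min differed: the median change was -0.09 without array a and -0.28 without array b. The number of genes called was 26 without array b, in a fit where the lone array is assumed to vary like the other groups, 3 without either Hsf1-aa 30 min array and 1 with the authors' log2 ratios. For these fits the shares of all features called are not given here. Over all features the SD of WT-aa values at 30 min was 0.279 on array a and 0.129 on array b. Array quality weights, estimated per group, were lowest at 30 min, at 0.449 for Hsf1-aa and 0.442 for WT-aa. They reached 1.62 in Hsf1-aa at 0 min.

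IMP3, the lowest gene in WT-aa at 15 and 30 min, encodes a component of the Mpp10 complex. In Hsf1-aa it read -0.25 and -0.19 at 0 min, -0.26 and -0.64 at 15 min, 0.20 and -0.42 at 30 min, 0.49 and 0.07 at 60 min, and 0.10 and 0.29 at 90 min. In WT-aa it read 0.20 and -0.18, -0.44 and -0.75, -0.84 and -0.40, -0.43 and -0.01, and 0.32 and 0.14. It had the largest SE of the 58 genes, 0.23, and its replicates lay on either side of 0 at 30 min in Hsf1-aa. Its change in WT-aa was -0.61 at 15 min and -0.63 at 30 min (adjusted p = 0.267 and 0.18), and in Hsf1-aa it was 0.50 at 60 min and 0.41 at 90 min (adjusted p = 0.252 and 0.331).

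**Figure D4:**
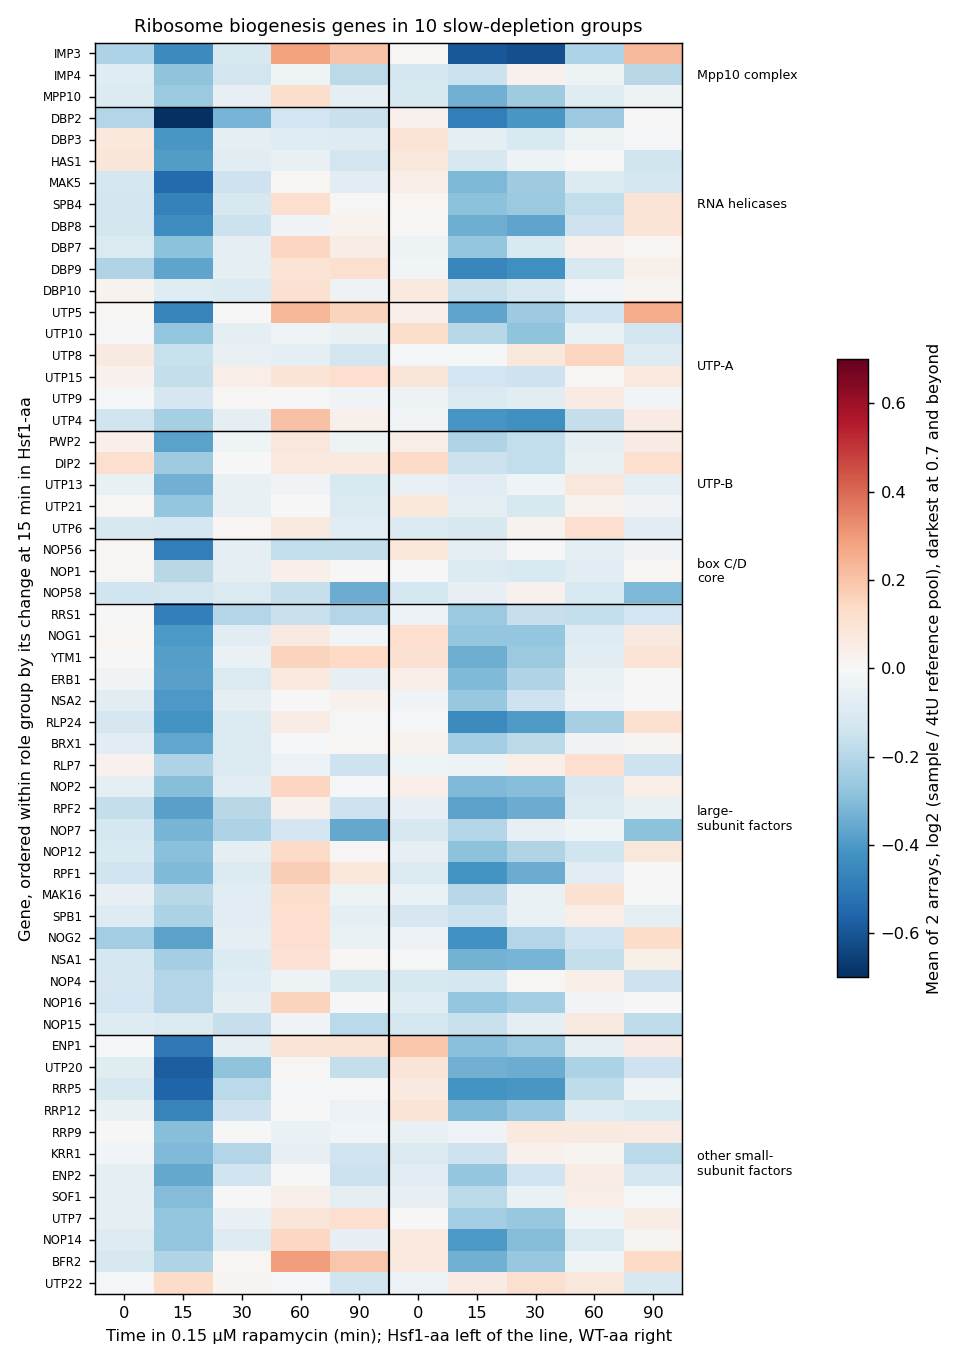
Mean log2 ratio of sample to 4tU reference pool (2 arrays per group; blue below 0, red above 0, colours at their darkest from 0.7) for the 58 genes, in rows by role group, at 0 to 90 min in Hsf1-aa (left of the line) and WT-aa (right). The columns at 15 min are blue for nearly all genes in both strains. At 30 min most genes are still below 0 in both strains, with mean array medians of -0.08 in Hsf1-aa and -0.21 in WT-aa.

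At 60 min Hsf1-aa had a median change of 0.09 against 0 min, with 13 of 58 genes below 0. DBP7 was called higher, where 0.409% of all features were, and 10 genes had p under 0.05 before adjustment, all higher, against 19.5% of all features. Both arrays were above both at 0 min for 17 of 58 genes, and for 19.8% of all features. DBP7 (YKR024C, chromosome XI) encodes a DEAD-box helicase of the large subunit pathway. It had -0.12 and -0.08 in Hsf1-aa at 0 min, -0.32 and -0.25 at 15 min, -0.05 and -0.08 at 30 min, 0.12 and 0.19 at 60 min, and -0.01 and 0.11 at 90 min. In WT-aa it had -0.08 and 0.01, -0.24 and -0.30, -0.17 and -0.04, -0.04 and 0.10, and -0.02 and 0.05. Its change at 60 min in Hsf1-aa was 0.26 (SE 0.06, limma adjusted p = 0.0445; 1.19-fold) and 0.06 in WT-aa (SE 0.06, adjusted p = 0.66). The call was lost without any 1 array of 0, 60 or 90 min of either strain, or of 15 min of Hsf1-aa, and kept without any of the other 6 arrays. It was also lost without the replicate block, without background correction, with median centring and with external control centring, and array quality weights gave 4 genes. In the same comparison NOP56 was lowest, at -0.18 (SE 0.12, adjusted p = 0.415).

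WT-aa at 60 min had a median change of -0.08 with 37 of 58 genes below 0, and of -0.00 without array a. None was called, where 0.394% of all features were, and 4 had p under 0.05 before adjustment, against 9.38% of all features. Both arrays were below both at 0 min for 19 of 58 genes, and for 16.6% of all features. UTP20 was lowest, at -0.31 (SE 0.13, adjusted p = 0.526), and UTP6 highest, at 0.21 (SE 0.09, adjusted p = 0.526).

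By 90 min the medians were near those at 0 min in both strains: 0.02 in Hsf1-aa, with 26 of 58 genes below 0, and -0.01 in WT-aa, with 32 below 0. None of the 58 genes was called in either strain, where 2.69% of all features were in Hsf1-aa and 0.976% in WT-aa. Before adjustment 8 genes in Hsf1-aa and 3 in WT-aa had p under 0.05, against 18.9% and 7.46% of all features. Among the chaperone genes 17 of 17 were called lower in Hsf1-aa at this time.

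The 6 genes of largest change at 90 min in Hsf1-aa were IMP3, DBP9, BFR2, NOP7, NOP58 and RPF1. DBP9, a large-subunit helicase, read -0.27 and -0.15 in Hsf1-aa at 0 min, -0.34 and -0.39 at 15 min, 0.17 and -0.29 at 30 min, 0.17 and 0.03 at 60 min, and 0.06 and 0.16 at 90 min. In WT-aa it read 0.04 and -0.07, -0.44 and -0.47, -0.57 and -0.29, -0.20 and -0.01, and -0.00 and 0.07. The WT-aa arrays at 15 and 30 min lay below all others of that strain, and in Hsf1-aa the values at 60 and 90 min lay above those at 0 min. Its change at 90 min was 0.32 in Hsf1-aa (SE 0.13, adjusted p = 0.226) and 0.05 in WT-aa (SE 0.13, adjusted p = 0.972).

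BFR2, a small-subunit factor, had -0.18 and -0.05 in Hsf1-aa at 0 min, -0.23 and -0.19 at 15 min, 0.19 and -0.16 at 30 min, 0.30 and 0.29 at 60 min, and 0.12 and 0.26 at 90 min. In WT-aa it had 0.11 and 0.02, -0.30 and -0.37, -0.49 and -0.04, -0.19 and 0.14, and 0.10 and 0.18. The WT-aa arrays differed most at 30 and 60 min, with array a the lower one, and the Hsf1-aa arrays at 60 min lay above all others of that strain. RPF1, of the large subunit pathway, had -0.19 and -0.09 in Hsf1-aa at 0 min, -0.24 and -0.38, 0.01 and -0.20, 0.28 and 0.07, and -0.10 and 0.25 at the later times. In WT-aa it had -0.09 and -0.11, -0.32 and -0.52, -0.48 and -0.21, -0.21 and 0.05, and -0.06 and 0.06. Of the Hsf1-aa arrays of RPF1 at 90 min, array a lay between those at 0 min and array b above them.

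NOP58 and NOP7 had their lowest group mean at 90 min in both strains, as UTP22 and NOP15 also did. NOP58 read 0.00 and -0.27 in Hsf1-aa at 0 min, -0.03 and -0.22 at 15 min, -0.06 and -0.14 at 30 min, -0.05 and -0.27 at 60 min, and -0.32 and -0.38 at 90 min. In WT-aa it read -0.13 and -0.12, 0.17 and -0.29, 0.15 and -0.10, -0.03 and -0.18, and -0.24 and -0.39. Both arrays at 90 min were below both at 0 min in each strain, and the means at 15 min were not below those at 0 min. The change at 90 min was -0.21 in Hsf1-aa and -0.19 in WT-aa (SE 0.09 each, adjusted p = 0.236 and 0.713). NOP7 read -0.01 and -0.24 in Hsf1-aa at 0 min, -0.38 and -0.27, -0.24 and -0.20, -0.04 and -0.22, and -0.30 and -0.42 at the later times. In WT-aa it read -0.12 and -0.10, 0.00 and -0.41, 0.11 and -0.23, -0.05 and -0.00, and -0.34 and -0.23. Its change at 90 min was -0.23 in Hsf1-aa and -0.17 in WT-aa (SE 0.12 each, adjusted p = 0.32 and 0.85). UTP8 and UTP21 had the largest change of their role groups at 90 min in Hsf1-aa, at -0.19 (adjusted p = 0.259) and -0.11 (adjusted p = 0.419). In WT-aa the ends of the range at 90 min were UTP10 at -0.26 (SE 0.09, adjusted p = 0.328) and UTP5 at 0.22 (SE 0.17, adjusted p = 0.866).

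The direct comparison set Hsf1-aa against WT-aa at each time. No culture without rapamycin was sampled after 0 min, so the drug cannot be told apart from elapsed time. None of the 58 genes differed between Hsf1-aa and WT-aa at any of the 5 times by the limma test after adjustment. The median differences (Hsf1-aa minus WT-aa) were -0.05 at 0 min, -0.08 at 15 min, 0.10 at 30 min, 0.11 at 60 min and -0.03 at 90 min. The shares of all features called were 0.126%, 0.220%, 0.787%, 1.21% and 1.23% at these times. With p under 0.05 before adjustment there were 0, 10, 7, 9 and 0 of the 58 genes, against 1.67%, 9.71%, 13.7%, 16.1% and 3.97% of all features. Without the Hsf1-aa 30 min array b, 8 of the 58 genes were called at 30 min. For that fit the share of all features called is not given here. Single arrays also moved the median differences. At 0 min the median was -0.08 without the Hsf1-aa 0 min array b, and at 15 min it was -0.02 without the WT-aa 15 min array a. At 30 min it was 0.02 without the WT-aa array a, 0.23 without the WT-aa array b, 0.04 without the Hsf1-aa array a and 0.16 without the Hsf1-aa array b. At 60 min it was 0.05 without the WT-aa 60 min array a. At 90 min it was 0.004 without the Hsf1-aa 90 min array a and -0.02 without the WT-aa 90 min array b.

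At 15 min the 10 genes with unadjusted p under 0.05 were all lower in Hsf1-aa. NOP56 had the lowest difference, -0.41 (SE 0.12, adjusted p = 0.401), and UTP4 the highest, 0.18 (SE 0.16, adjusted p = 0.68). At 30 and 60 min IMP3 was highest in both, at 0.51 and 0.50 (SE 0.23 each, adjusted p = 0.364 and 0.308). KRR1, a small-subunit factor, was lowest at 30 min, at -0.24 (SE 0.08, adjusted p = 0.364), and UTP8 at 60 min, at -0.21 (SE 0.09, adjusted p = 0.292). At 0 min the range ran from DBP2 at -0.24 (SE 0.13, adjusted p = 0.998) to KRR1 at 0.09 (SE 0.08, adjusted p = 0.998), and at 90 min from NOG2 at -0.17 (SE 0.12) to UTP10 at 0.09 (SE 0.09).

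The change of the strain difference since 0 min, the interaction, likewise called none of the 58 genes. Its medians were -0.01 at 15 min, 0.18 at 30 min, 0.17 at 60 min and 0.01 at 90 min, and over all features they lay between -0.02 and -0.01. The shares of all features called were 0%, 0.110%, 0.661% and 0.756%. Before adjustment 4, 13, 12 and 0 genes had p under 0.05, against 3.65%, 11.5%, 13.7% and 2.17% of all features. With single arrays left out, the medians at 15 and 90 min took either sign, from -0.05 to 0.03 and from -0.01 to 0.07. At 60 min the median was 0.10 without the WT-aa 60 min array a. At 30 min it was 0.08 without the WT-aa 30 min array a, 0.30 without the WT-aa array b and 0.12 without the Hsf1-aa array a, and 8 of the 58 genes were called without the Hsf1-aa 30 min array b. For the fit without that last array the share of all features called is not given here. IMP3 was highest at 15, 30 and 60 min, at 0.37, 0.73 and 0.73 (SE 0.32 each, adjusted p = 0.766, 0.387 and 0.356). NOP56 was lowest at 15 min, at -0.35 (SE 0.17, adjusted p = 0.762), KRR1 at 30 min, at -0.32, and UTP8 at 60 min, at -0.28. At 90 min the range ran from RRP9, a protein bound to U3 RNA, at -0.13 (SE 0.12) to DBP9 at 0.27 (SE 0.19).

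Other genes of the same pathway, from lists that were also chosen with earlier results of these data known, had medians below 0 at 15 min in both strains, apart from the ribosomal protein genes in WT-aa. In Hsf1-aa the median change was -0.22 over 38 further small-subunit factors, -0.24 over 35 further large-subunit factors, -0.22 over 8 genes of RNA polymerase I and Rrn3, and -0.16 over 10 RNA polymerase III subunits. In WT-aa the medians of these lists were -0.23, -0.11, -0.25 and -0.21. CBF5, NHP2, NOP10 and GAR1 encode proteins of the box H/ACA particles, which make pseudouridine in ribosomal RNA. Listed together with SNU13, these 5 genes had medians of -0.10 for Hsf1-aa and -0.02 for WT-aa. The 125 ribosomal protein genes were at -0.06 and 0.01. The 10 regulators listed were at -0.11 and -0.04, and the lowest of them in both strains was TOD6, a repressor of these genes, at -0.48 in Hsf1-aa (SE 0.17, adjusted p = 0.238) and -0.60 in WT-aa (SE 0.17, adjusted p = 0.199).

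In Hsf1-aa at 15 min 4 of the 38 small-subunit factors fell: FAF1 by 0.51 (adjusted p = 0.00323), NOB1 by 0.47 (adjusted p = 0.0427), DHR2 by 0.44 (adjusted p = 0.0316) and ECM16 by 0.35 (adjusted p = 0.0263) on the log2 scale. NOB1 encodes the nuclease that makes the end of the small-subunit RNA, and DHR2 and ECM16 encode helicases. Of the 35 large-subunit factors NUG1 fell by 0.33 (adjusted p = 0.0312) and IPI1 by 0.23 (adjusted p = 0.0404). The same comparison called 0.535% of all features lower. How the calls of these 6 genes depend on the processing is not given here. The lowest large-subunit factor was MRT4, at -0.61 (adjusted p = 0.0767), and the highest genes of these lists were FCF1 at 0.13 and NOP53 at 0.05. The lowest RNA polymerase subunits were RPA14 at -0.48 and RPC25 at -0.37, and the highest RPA49 at -0.03 and RPC11 at -0.04. In WT-aa no gene of these lists was called at 15 min, and the changes of these 6 genes lay between -0.33 for FAF1 (adjusted p = 0.0915) and -0.08 for NOB1 (adjusted p = 0.65). At 90 min REA1, a motor protein of large subunit assembly, was called lower in WT-aa, at -0.36 (adjusted p = 0.0281), and was at -0.23 in Hsf1-aa (adjusted p = 0.121).

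The standard depletion gives 1 array per strain, so its values have no replicate check and no test. Its reference was total RNA pooled from BY4742 cells without 4tU, so the ratio compares newly made with total RNA and cannot be set against the slow arrays. On this scale the 58 genes stood high in both strains: the median was 0.78 in Hsf1-aa and 0.80 in WT-aa. These medians depended on the processing. With median centring, no background correction or the authors' log2 ratios they ran from 0.71 to 1.14 in Hsf1-aa. In WT-aa they ran from 0.72 to 0.89. In the main setting the medians were 0.02 and 0.03 over all features and -0.40 and -0.30 over the ribosomal protein genes. A log2 ratio of 0.5 or more was reached by 40 of 58 genes in Hsf1-aa and 42 in WT-aa, where 9.70% and 10.6% of all features reached it. All 6 UTP-A and all 5 UTP-B genes reached it in both strains, and none of the 3 box C/D core genes did. The highest genes were UTP6 in Hsf1-aa, at 1.43, and MAK16 in WT-aa, at 1.36, and DBP2 was lowest in both, at -0.07 and -0.04. The reference channel was dim here, its median foreground intensity being 172.6 for Hsf1-aa and 297 for WT-aa, and its part in these ratios was not tested.

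Between the strains, the difference on the standard arrays (Hsf1-aa minus WT-aa) over these genes ranged from -0.20 for RLP24, an assembly factor related to a ribosomal protein, to 0.15 for MAK5, with a median of -0.02. None of the 58 genes passed 0.5 in either direction, where 1.15% of all features did. HSP82, a chaperone gene driven by Hsf1, differed by -3.69 on the same arrays, the lowest value of all features. The median over the 58 genes was 0.25 when the arrays were centred on their medians without loess, and 0 genes passed 0.5 then as well.

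**Figure D5:**
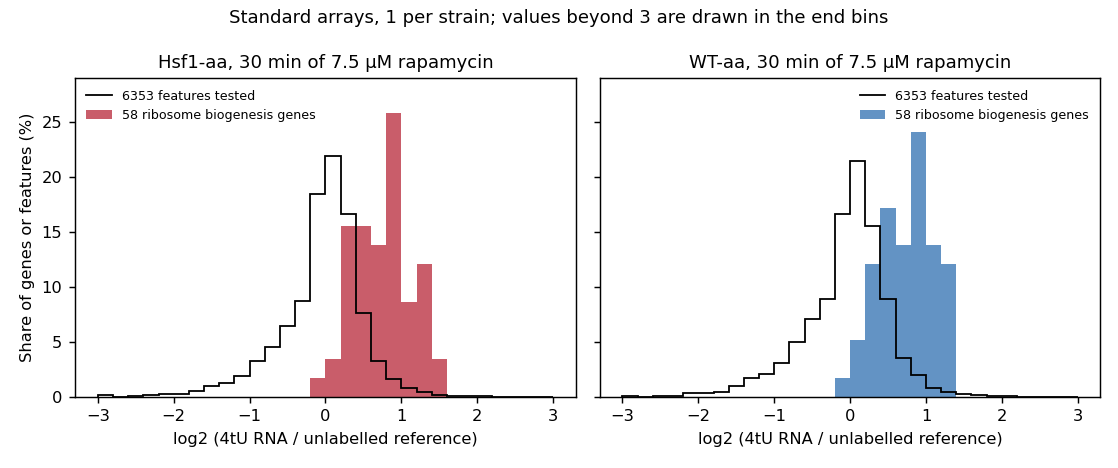
Share of genes (percent) by log2 ratio of 4tU RNA to the unlabelled reference after 30 min of 7.5 µM rapamycin, for the 58 ribosome biogenesis genes (filled) and the 6353 features tested (outline), in Hsf1-aa (left) and WT-aa (right), 1 array each. The ribosome biogenesis genes lie to the right of the other features on both arrays, with medians of 0.78 and 0.80.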

How the data were processed

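The authors deposited scanner files with the linear intensity of each spot and its local background in both dyes, per the file headers. They also deposited a table of log2 ratios of Cy5 to Cy3, with no stated normalization in the labels. Each array held 15552 spots, of which 12776 were yeast spots (6388 probes), 1872 external control spots and 904 quality control spots. A gene symbol was given for 5326 probes, and 58 old symbols were updated through RefSeq synonyms.

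Intensities were background-corrected by normexp (offset 50) and normalised by loess within arrays, with control spots at weight 0. All ratios are sample over reference, averaged over the spots of a gene. A feature was tested if it lay 2 background SD above background on at least 2 slow arrays, which left 6353 features, 5293 of them named. One fit in limma 3.58.1 (R 4.3.3; lmFit, eBayes) covered the 20 slow arrays, with 10 groups and a dye term (the same factor as the letter), with 9 residual degrees of freedom (12.55 including the prior). The script was tested on simulated data. Tests are two-sided, with p-values adjusted by Benjamini-Hochberg over all features (threshold 0.05). SE is that of this fit, with n = 2 arrays per group. Array titles share a number between letters, and its meaning is not given. Should both letters stem from 1 culture, the p-values measure technical spread alone.

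The members and gene lists were chosen with earlier results of these data known. Genes were named by rule: the highest and lowest member of each contrast, those past the threshold (up to 5 a direction), and the largest change of each role group at 90 against 0 min in Hsf1-aa. Other members by role, such as ENP1, UTP5, ERB1 and NOP15, were chosen after their values were seen. Values of every array follow the same rule for the 6 members of largest change there, and were added for the members called. Of the other lists, NOP19, RRP36, SSA2, MFALPHA1 and MFALPHA2 had no matching symbol. Promoter motifs were not analysed here. The alternatives were no dye term, no background correction, median centring, external control centring, no filter, array quality weights, the authors' log2 ratios and each array left out. Shares of all features called are given for the main setting only.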

Additional observations from a re-analysis of the deposited data

Results flagged for a closer look

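At 60 min against 0 min the array medians of the 58 ribosome biogenesis genes moved in opposite directions in the strains, with a small step on array b of WT-aa. In Hsf1-aa both 60 min medians (0.10 and 0.01) lay above both at 0 min (-0.05 and -0.09), and in WT-aa both 60 min medians (-0.082 and -0.014) lay below both at 0 min (0.017 and -0.008). On array b of WT-aa the median went from -0.008 to -0.014, while array medians had an SD of 0.072 between replicates. The median of the gene-wise changes in WT-aa was -0.079 with all arrays and -0.001 without the WT-aa 60 min array a. The median of the gene-wise interaction was 0.169. From the group means of the array medians, the Hsf1-aa change minus the WT-aa change was 0.177 on the log2 scale with all arrays. This difference of medians was not tested. Gene by gene, the interaction at 60 min called none of the 58 genes by the limma test, where 0.661% of all features were called. An unadjusted p under 0.05 was found for 12 of the 58 genes, 2 of them lower, against 13.7% of all features. The ribosomal protein medians at 60 min were -0.12 and -0.04 in Hsf1-aa and 0.098 and 0.035 in WT-aa, and their part in the result was not tested.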

How the results depend on the processing

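The counts of members called at 15 min in Hsf1-aa (4 genes) and at 60 min in Hsf1-aa (1 gene) changed with the processing. Without the replicate block (no dye term) both were 0. At 15 min in Hsf1-aa the count was 1 with median centring, 17 with array quality weights and 12 with the authors' log2 ratios, and it ranged from 0 to 11 when single arrays were left out. At 60 min it was 0 without background correction, with median centring and with external control centring, 4 with array quality weights, and 0 to 1 with single arrays left out. In WT-aa at 15 min, where none was called, array quality weights gave 26, the authors' log2 ratios 3, and single arrays left out 0 to 2. In WT-aa at 30 min the authors' log2 ratios gave 1, and single arrays left out 0 to 26. The strain difference and the interaction at 30 min ranged from 0 to 8 with single arrays left out. The replicate block changed no other count of members called. The shares of all features called under the alternatives are not given here, so these counts cannot be set against them. The median change at 15 min kept its sign under every alternative in both strains, from -0.30 to -0.20 in Hsf1-aa and from -0.28 to -0.18 in WT-aa. External control centring moved the median of all features by at most 0.07. The sign turned for 4 values of single genes: KRR1 between the strains at 0 min ranged from -0.048 (without WT-aa 0 min array a) to 0.22 (without array b), UTP10 between the strains at 90 min ranged from -0.037 (without Hsf1-aa 90 min array a) to 0.211 (without array b), UTP21 at 90 min in Hsf1-aa ranged from -0.229 (without array a) to 0.00064 (without array b), and NOP58 at 30 min in WT-aa was -0.039 with the authors' log2 ratios. The cause of these changes was not tested.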
